A study of Mus musculus with 9 samples.

Results

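The genes described here are 9 transcription factors that pattern the dorsal telencephalon and mark its radial glial cells (RGCs): *Pax6*, *Sox2*, *Emx1*, *Emx2*, *Lhx2*, *Nr2f1*, *Dmrta2*, *Dmrt3* and *Sp8*. They were chosen by name and matched by symbol to the Ensembl identifiers of the counts table, where they are 9 of 57010 genes. All 9 had more than 10 reads in every embryo and were therefore among the 13680 genes tested. RNA was sequenced from microdissected cerebral cortex of E12.5 mouse embryos (E, embryonic day), with 1 library from each single embryo and 3 embryos per genotype. The study asked what loss of *Cnot3*, which encodes a subunit of the CCR4-NOT deadenylase complex that shortens mRNA poly(A) tails, does to the transcriptome of the developing cortex.

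The embryos fall into 3 genotypes. Control (Ctrl) embryos carry the genotype label WT. In the conditional knockout (cKO), *Emx1*-Cre recombined both floxed copies of *Cnot3* (*Cnot3* lox/lox). In the double conditional knockout (dcKO), *Emx1*-Cre recombined *Cnot3* lox/lox together with *Trp53* lox/lox, which removes p53 from the same cells. *Emx1*-Cre acts in dorsal telencephalic RGCs and their progeny, so vessels, blood and meninges in the same tissue keep intact alleles. The Cre is expressed from the *Emx1* locus, so in both mutants 1 of the 9 genes is itself the Cre driver. For *Emx1*, the Cre allele and the loss of *Cnot3* cannot be told apart, because the groups differ in both.

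RGCs are the stem cells that line the cortical ventricle and give rise to intermediate progenitors and neurons. Their position along the rostral to caudal and lateral to medial axes is set by opposing gradients of transcription factors, which read signals from a rostral source of fibroblast growth factors (FGFs) and from the cortical hem, a medial source of Wnts and bone morphogenetic proteins (BMPs). PAX6 is high rostrally and laterally, EMX2 and the DM domain factors DMRTA2 and DMRT3 are high caudally and medially, SP8 is high rostrally and medially, and NR2F1 (COUP-TFI) is high caudally and laterally. LHX2 is a LIM homeodomain factor that keeps cortical progenitors from taking hem and antihem fates, EMX1 is a homeodomain factor of the dorsal telencephalon, and SOX2 is an HMG box factor that maintains neural stem cells.

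Members of 2 families were measured side by side, and their DNA-binding domains show how far reads from one can be told from those of the other. The most similar stretches of 120 coding bases in *Emx1* and *Emx2*, without gaps, lay in the homeobox, and are given 5′ to 3′ from GENCODE release M21 with the bases that differ in capitals.
Emx1, coding bases 470 to 589: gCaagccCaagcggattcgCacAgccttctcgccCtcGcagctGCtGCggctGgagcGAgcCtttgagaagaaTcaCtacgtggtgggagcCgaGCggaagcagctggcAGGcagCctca
Emx2, coding bases 458 to 577: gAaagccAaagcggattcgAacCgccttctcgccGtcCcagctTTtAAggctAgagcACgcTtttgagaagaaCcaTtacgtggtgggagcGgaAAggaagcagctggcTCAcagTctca
Of these 120 bases, 97 were identical (80.8%). The longest run of identical bases between any annotated transcripts of the pair was 14, against sequenced reads of 150 bases. The GC content of the stretch was 64.2% in *Emx1* and 54.2% in *Emx2*, a difference between the paralogues that recurs in the results.

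The corresponding stretches of *Dmrta2* and *Dmrt3* lay in the DM domain, the zinc-binding DNA-binding domain of this family, and are shown in the same way.
Dmrta2, coding bases 192 to 311: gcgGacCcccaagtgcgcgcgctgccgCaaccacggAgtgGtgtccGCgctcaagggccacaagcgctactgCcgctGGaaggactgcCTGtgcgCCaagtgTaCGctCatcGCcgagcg
Dmrt3, coding bases 72 to 191: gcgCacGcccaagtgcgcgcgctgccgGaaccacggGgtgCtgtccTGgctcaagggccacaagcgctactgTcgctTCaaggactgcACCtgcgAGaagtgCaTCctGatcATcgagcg
Here 99 of 120 bases were identical (82.5%), and the longest identical run was 24 bases. For paralogues that are not among the 9 genes, the longest identical runs were 38 bases between *Sox2* and *Sox1*, 59 between *Nr2f1* and *Nr2f2*, 17 between *Lhx2* and *Lhx9*, and 44 between *Sp8* and *Sp9*. All of these runs were shorter than 1 read.

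Libraries held 21193798 to 28869816 counted reads in Ctrl, 24835674 to 25946075 in cKO and 23275370 to 45073349 in dcKO. The *Cnot3* level checked the labels. Its normalized counts (reads scaled to a common library size) were 3291, 3000 and 2756 in Ctrl, 420, 484 and 408 in cKO, and 206, 1353 and 534 in dcKO. *Trp53* was at 423, 3098 and 579 normalized counts in the 3 dcKO embryos and at 6029 to 7123 in Ctrl. In cKO it was at 4676, 4612 and 4693, below every control. dcKO replicate 2 thus kept the most *Cnot3* and *Trp53* RNA of the mutant group, and the 3 dcKO embryos differed more from each other than those of the other groups did (mean chi-square per gene of 185 to 507 between dcKO pairs, and 15.6 to 53.8 between pairs of Ctrl or of cKO). Values for dcKO are therefore also given without replicate 2 or replicate 3 where that changes a call.

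Most markers of the neighbouring subpallium were at or near 0 in this tissue. Of 15 subpallial markers, 13 had no more than 10 reads in at least 1 embryo and were not tested. *Gsx2*, *Dlx1* and *Nkx2-1*, which define subpallial progenitors, were at 0 in every cKO embryo. In dcKO replicate 2 the same genes reached 2.45, 1.20 and 0.46 CPM (read counts scaled to a fixed library total). *Lhx6*, a marker of interneurons born in the subpallium and one of those tested, was at 0.843 to 1.3 CPM in Ctrl and 1.81 to 4.46 CPM in cKO, above every control (log2 fold change 1.5, edgeR adjusted p = 0.0994). *Olig2*, *Isl1*, *Lhx8* and *Gad1* were at no more than 0.49 CPM in any Ctrl or cKO embryo. In contrast, 6 choroid plexus markers summed to 4.97 to 6.25 CPM in Ctrl, 18.9 to 71.8 CPM in cKO and 17.2 to 109 CPM in dcKO, with *Ttr*, the choroid plexus transthyretin gene, at 0 in every Ctrl embryo and at 5.91, 10.9 and 32.8 CPM in cKO. *Aqp1*, a water channel gene of the same list, was below every control in each mutant embryo, at 3.22 to 4.51 CPM in Ctrl, 1.67 to 2.99 in cKO and 0.179 to 1.97 in dcKO.

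In control cortex, *Lhx2* was the most abundant of the 9 transcripts and *Sp8* the least. Levels were compared per length, as CPM per kilobase of the longest transcript (RPKM, n = 3 embryos). *Lhx2* was at 232 ± 68.0 RPKM (SD), and its lowest embryo (165) lay above every embryo of the next gene. *Sox2* (65.4 ± 15.2 RPKM), *Emx2* (62.7 ± 4.03), *Emx1* (49.8 ± 24.8) and *Nr2f1* (48.0 ± 7.90) followed, and each neighbour in this order overlapped the next in its range. Below them *Pax6* (32.8 ± 2.28 RPKM), *Dmrt3* (25.3 ± 3.48), *Dmrta2* (12.3 ± 5.58) and *Sp8* (6.62 ± 0.516) followed, each with a range above that of the next. The wide range of *Emx1* (28.0 to 76.8 RPKM) spanned that of *Pax6* (30.2 to 34.5).

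The control embryos were not equally tight for all genes. The highest Ctrl embryo exceeded the lowest by 2.74-fold for *Emx1*, 2.22-fold for *Dmrta2* and 1.83-fold for *Lhx2*, but by only 1.13-fold for *Emx2* and 1.14-fold for *Pax6* and *Sp8*. Replicate 1 was the highest control for every gene except *Dmrt3*, and replicate 3 the lowest for every gene except *Sp8*.

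**Figure D1:**
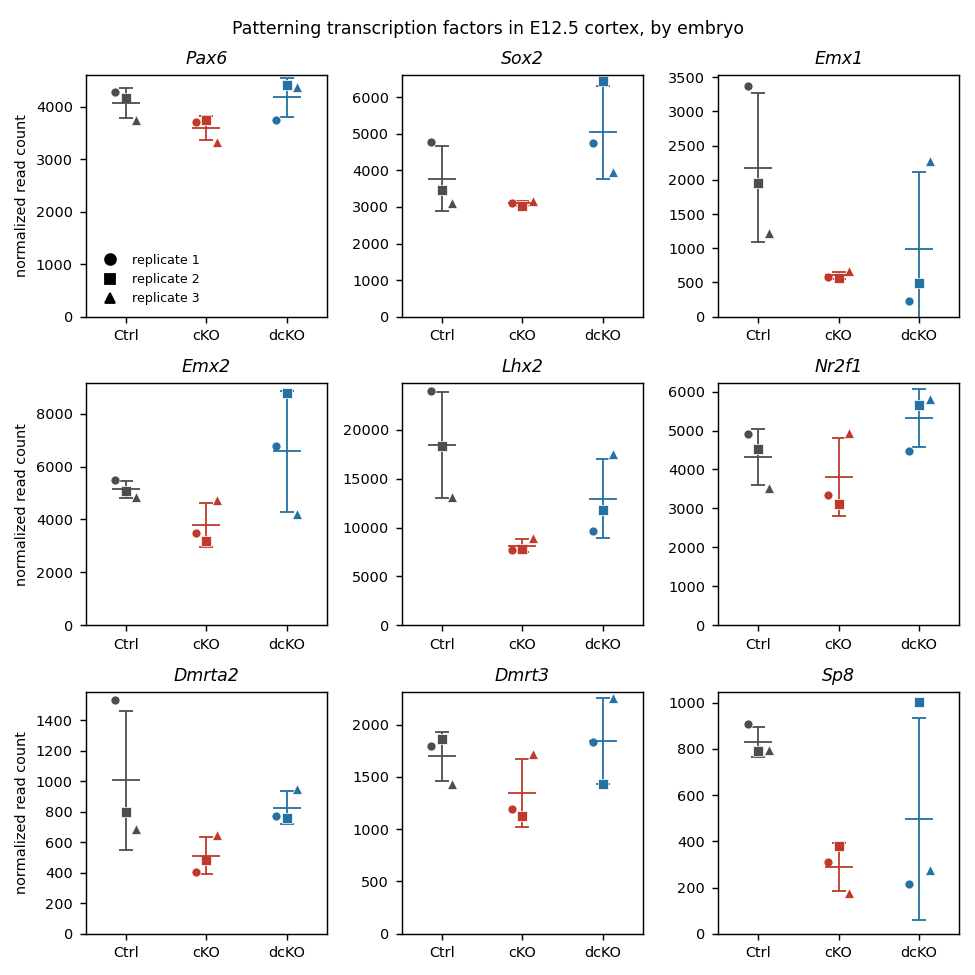
Normalized read counts (y axes, starting at 0) of the 9 genes in 3 Ctrl, 3 cKO and 3 dcKO cortices; symbols mark replicates 1 to 3, and the horizontal mark and bar give the mean and SD (for Emx1 in dcKO the bar is cut at 0). In cKO the points of Emx1, Lhx2, Sp8 and Dmrta2 all lie below the control points, while in dcKO Emx1 spans 223 to 2270 and Sp8 spans 215 to 1001.

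In cKO cortex all 9 genes were lower on average than in Ctrl, with a median log2 fold change of -0.43, whereas 50.7% of all genes tested were higher. The largest differences were in *Emx1*, *Sp8*, *Lhx2* and *Dmrta2*, and the smallest in *Pax6* and *Nr2f1*. No member was called by edgeR's quasi-likelihood test over all 9 embryos at a Benjamini-Hochberg adjusted p under 0.05 and a fold change above 2, a threshold that 0.0146% of all genes passed. At an unadjusted p under 0.05, 4 of the 9 were lower (*Emx1*, *Lhx2*, *Dmrta2*, *Sp8*), beside 11.7% of all genes. In 6 of the 9, the highest cKO embryo was still below the lowest control, beside 28.0% of all genes.

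The call differed between fits. DESeq2 called *Emx1*, *Lhx2* and *Sp8* lower, beside 3.88% of all genes. edgeR fitted on only the 6 Ctrl and cKO embryos called those 3 as well, beside 5.94% of all genes. With each dcKO embryo left out in turn, edgeR called 1 (*Lhx2*, without replicate 1), 2 (*Lhx2* and *Sp8*, without replicate 2) and 3 (without replicate 3), beside 2.93%, 2.72% and 5.49% of all genes called lower. DESeq2 called none of the 9 without Ctrl replicate 1, only *Lhx2* without Ctrl replicate 2, cKO replicate 1 or cKO replicate 2, *Lhx2* and *Dmrta2* without cKO replicate 3, *Emx1*, *Lhx2* and *Dmrta2* without Ctrl replicate 3, and *Lhx2* and *Sp8* without dcKO replicate 2. In these 7 fits it called from 1.18% (without Ctrl replicate 1) to 4.79% (without dcKO replicate 2) of all genes lower.

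*Lhx2* lies at chr2:38339281-38369733 (GRCm38, GENCODE M21, as are all positions here). It was at 23957, 18365 and 13117 normalized counts in Ctrl, 7721, 7762 and 8886 in cKO, and 9608, 11782 and 17486 in dcKO. All 3 cKO embryos were below the lowest control, and the dcKO embryos overlapped the controls. The cKO level was 2.27-fold lower (log2 fold change -1.19 ± 0.27 SE). Its edgeR adjusted p was 0.0514 over 9 embryos and 0.000516 over the 6 embryos compared, and that of DESeq2 was 0.00164. Leaving out 1 embryo at a time moved the log2 fold change between -1.38 and -0.95. With a correction for GC content (the share of G and C bases in a transcript) it was -0.60.

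*Emx1*, at chr6:85187438-85204462, was at 3366, 1948 and 1228 normalized counts in Ctrl, 576, 572 and 666 in cKO, and 223, 498 and 2270 in dcKO. The cKO embryos sat close together below all controls, and dcKO replicate 3 sat among the controls while the other two dcKO embryos were below every cKO embryo. In cKO the level was 3.61-fold lower (log2 fold change -1.85 ± 0.71 SE, edgeR adjusted p = 0.13, DESeq2 adjusted p = 0.0298, edgeR on 6 embryos adjusted p = 0.000667). With the GC correction the log2 fold change was -0.41. Of the 9 genes it had the widest spread in dcKO, 10.2-fold between the lowest and highest embryo.

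*Emx2*, at chr19:59458372-59465357, has a partly redundant role with *Emx1* in the cortex. Its normalized counts were 5495, 5059 and 4849 in Ctrl, 3490, 3177 and 4745 in cKO, and 6767, 8762 and 4207 in dcKO. Every cKO embryo was below every control, though cKO replicate 3 by a narrow margin, and 2 of 3 dcKO embryos were above every control. The log2 fold change in cKO was -0.43 ± 0.26 SE (edgeR adjusted p = 0.308, DESeq2 adjusted p = 0.317). Over the 6 embryos compared, edgeR gave an adjusted p of 0.0232, at a fold change under 2.

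*Sp8*, a zinc finger factor downstream of rostral FGF signaling, lies at chr12:118846329-118852576. It was at 906, 792 and 796 normalized counts in Ctrl, 309, 379 and 178 in cKO, and 215, 1001 and 275 in dcKO. Its controls were tight and all 3 cKO embryos were far below them. dcKO replicates 1 and 3 were at cKO levels, and dcKO replicate 2 was above every control. In cKO it was 2.88-fold lower (log2 fold change -1.53 ± 0.54 SE, edgeR adjusted p = 0.109, DESeq2 adjusted p = 0.0284, edgeR on 6 embryos adjusted p = 0.00062). *Sp8* is also expressed in the dorsal part of the lateral ganglionic eminence, and dcKO replicate 2 was the embryo with *Gsx2*, *Dlx1* and *Nkx2-1* reads; the part of such tissue in its *Sp8* level was not tested.

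*Dmrta2*, at chr4:109978053-109983687, was at 1530, 796 and 689 normalized counts in Ctrl, 408, 485 and 644 in cKO, and 774, 758 and 949 in dcKO. Ctrl replicate 1 stood well above the other two, and the highest cKO embryo was just under the lowest control. The log2 fold change in cKO was -0.97 ± 0.32 SE (edgeR adjusted p = 0.0928, DESeq2 adjusted p = 0.0299). It did not reach the limit of 2-fold over all embryos, and leaving out 1 embryo moved it between -1.18 (without Ctrl replicate 3 or cKO replicate 3) and -0.53 (without Ctrl replicate 1). With the GC correction it turned to 0.29. Its relative *Dmrt3*, at chr19:25610301-25623921, was at 1801, 1863 and 1432 normalized counts in Ctrl, and at 1194, 1127 and 1723 in cKO, so that the groups overlapped (log2 fold change -0.33 ± 0.23 SE, edgeR adjusted p = 0.386, and 0.33 with the GC correction).

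*Pax6*, at chr2:105668900-105697364, was at 4292, 4168 and 3752 normalized counts in Ctrl, 3722, 3743 and 3335 in cKO, and 3756, 4415 and 4385 in dcKO. The cKO embryos were all below the controls, the closest by a narrow margin. The difference was small (log2 fold change -0.18 ± 0.15 SE, edgeR adjusted p = 0.467), and with its low spread *Pax6* was the steadiest of the 9 genes over the 9 embryos. *Sox2*, at chr3:34650405-34652461, was at 4769, 3456 and 3100 normalized counts in Ctrl, 3103, 3037 and 3151 in cKO, and 4740, 6443 and 3944 in dcKO. The cKO embryos overlapped the lowest control (log2 fold change -0.29 ± 0.22 SE, edgeR adjusted p = 0.431).

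*Nr2f1*, a nuclear receptor gene at chr13:78188973-78199757, was at 4906, 4517 and 3527 normalized counts in Ctrl and at 3344, 3112 and 4948 in cKO. cKO replicate 3 was the highest of these 6 embryos and cKO replicate 2 the lowest (log2 fold change -0.18 ± 0.22 SE, edgeR adjusted p = 0.622, and 0.55 with the GC correction). The same replicate 3 was the highest cKO embryo for every member except *Sp8* and *Pax6*, for which it was the lowest. *Nr2f1*, *Emx2*, *Dmrta2* and *Dmrt3* are the caudal factors of the set, and *Sp8* and *Pax6* the rostral ones. *Emx1*, *Lhx2* and *Sox2*, also highest in replicate 3, were not placed on this axis here. With 3 cKO embryos this is a description of 1 embryo.

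In bulk tissue, fewer cells that express a gene and less RNA of that gene in each cell cannot be told apart. Of 12 radial glia markers, all tested, 2 were higher and 4 lower in cKO at an unadjusted p under 0.05, beside 15.3% and 11.7% of all genes. Their median log2 fold change was -0.19, and their summed level was 4020 to 4570 CPM in Ctrl and 3810 to 4440 CPM in cKO. That sum holds opposite differences. *Vim* was at 1160 to 1500 CPM in Ctrl and 1660 to 2030 in cKO, and *Nes* at 1030 to 1090 CPM in Ctrl and 568 to 753 in cKO. Intermediate progenitor markers were 2 of 9 lower and none higher. Neuron markers were 1 higher and 1 lower of 13, with a median of -0.53. Cajal-Retzius cells are early neurons, many of them from the hem, and their 8 markers all had a positive log2 fold change in cKO (median 0.49). Of these, 1 was higher at an unadjusted p under 0.05, beside 15.3% of all genes. *Reln*, which defines these cells, was at 0.02 (edgeR adjusted p = 0.964).

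Markers of cells outside the neural lineage were measured in the same libraries. Summed levels of 8 mesenchymal and meningeal markers were 805 to 878 CPM in Ctrl, 472 to 724 CPM in cKO and 344 to 526 CPM in dcKO, without overlap of either mutant with the controls, while the median log2 fold change of the 7 tested was 0.00 in cKO. Blood cell markers summed to 7690 to 11500 CPM in Ctrl, 9530 to 14500 in cKO and 4950 to 6780 in dcKO. Endothelial markers were at 218 to 293, 213 to 302 and 143 to 156 CPM, and microglial markers at 37.3 to 45.5, 38.3 to 80.1 and 13.4 to 32.6 CPM, in the same order. In dcKO against cKO, 7 of 9 blood, 5 of 7 endothelial and 5 of 5 tested microglial markers were lower at an unadjusted p under 0.05, beside 2.38% of all genes, and none was higher. The part of these cells in the levels of the 9 genes was not tested.

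**Figure D2:**
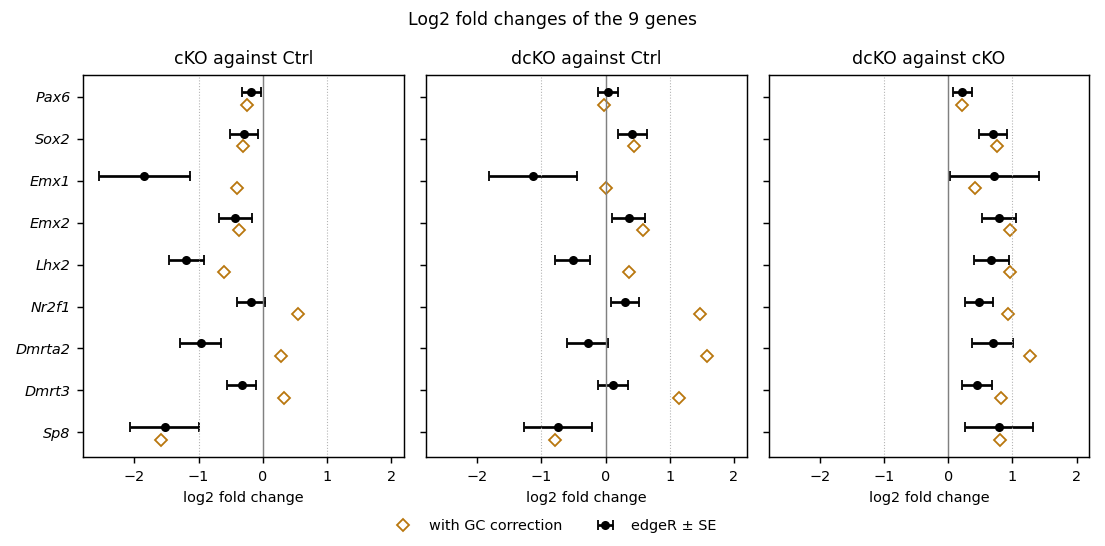
Log2 fold change (x axis) of the 9 genes (y axis) in the 3 comparisons; black points and bars are the edgeR estimate ± SE over 9 embryos, open diamonds the estimate after a correction for GC content, and dotted lines mark a 2-fold difference. In cKO against Ctrl the diamonds of Emx1, Dmrta2, Nr2f1, Dmrt3 and Lhx2 lie to the right of the points, and that of Sp8 lies on its point (-1.58 and -1.53).

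The 9 genes differ in base composition, and the embryos differed in the levels of GC-rich transcripts. The longest transcripts of *Emx1* and *Dmrta2* were 66.8% and 65.4% GC, those of *Nr2f1*, *Dmrt3* and *Lhx2* 60.2%, 59.6% and 58.5%, and those of *Emx2*, *Sox2*, *Sp8* and *Pax6* 52.2%, 50.5%, 49.6% and 49.3%. The median over 13561 tested genes with a known GC content was 49.4%, and 8 of the 9 genes were at or above it. Across all tested genes of 60 to 65% GC (459 genes), the median log2 ratio to the control mean was -0.88, -0.59 and -0.93 in the cKO embryos, and -1.80, -1.71 and 0.13 in the dcKO embryos. Among controls it was 0.33, 0.08 and -0.41. For genes under 45% GC (3552 genes) the medians were 0.23, 0.16 and 0.25 in cKO and 0.58, 0.82 and -0.08 in dcKO.

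Set against all genes of their own GC class, the 9 genes ranged from below to above the class median. In the 3 cKO embryos *Sp8* was at -1.56, -1.21 and -2.35 relative to the median of its class on the log2 scale. *Lhx2* was at -0.79, -0.94 and -0.52, and *Emx1* at -0.62, -0.93 and -0.40 in a class of 32 genes. *Emx2* was at -0.50, -0.62 and -0.01, *Pax6* at -0.27, -0.20 and -0.42, and *Sox2* at -0.20, -0.22 and -0.14. *Dmrta2*, of the same class as *Emx1*, was at -0.03, -0.08 and 0.64, and *Dmrt3* at -0.07, -0.31 and 0.52. *Nr2f1* was above its class in all 3 cKO embryos, by 0.53, 0.13 and 1.14.

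A fit with a correction for GC content by gene and embryo used the same counts and GC values, so it is not independent of the comparison with GC classes. The log2 fold change in cKO stayed at -1.58 for *Sp8* (edgeR adjusted p = 0.0657), and became -0.60 for *Lhx2* (edgeR adjusted p = 0.0948) and -0.41 for *Emx1* (edgeR adjusted p = 0.225). It turned positive for *Dmrta2* (0.29), *Dmrt3* (0.33) and *Nr2f1* (0.55), and remained near its uncorrected value for *Emx2* (-0.37), *Sox2* (-0.31) and *Pax6* (-0.24). No member was called in this fit, in which 1.45% of all genes were called lower. Whether the GC trend arose in the libraries or in the tissue was not tested, and its part in the lower *Emx1*, *Lhx2* and *Dmrta2* was not tested.

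**Figure D3:**
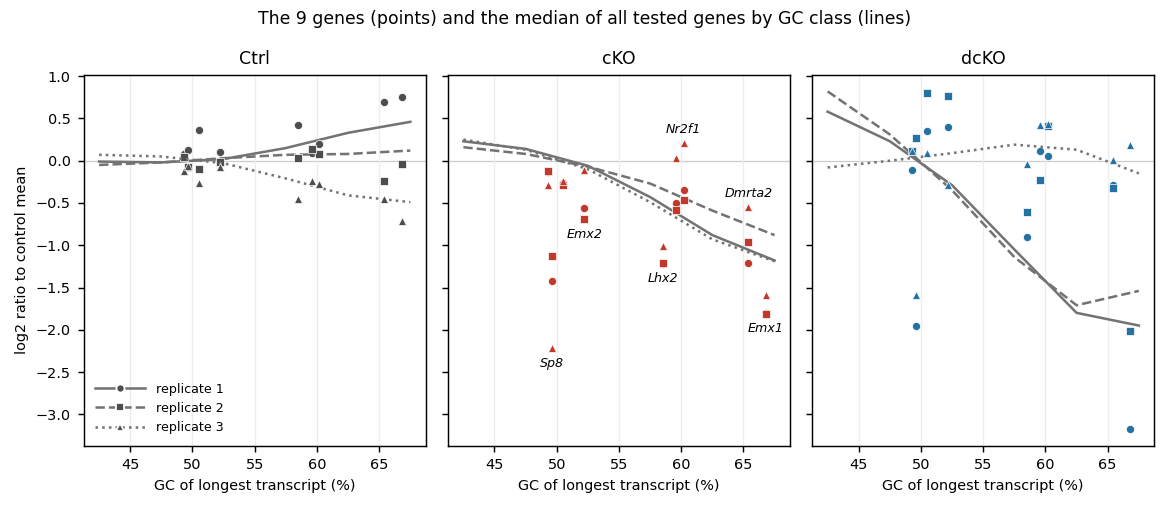
Log2 ratio to the control mean (y axes) against GC content of the longest transcript (x axes, %), in Ctrl, cKO and dcKO; points are the 9 genes in each embryo, with 6 genes named in the cKO panel, and lines join the medians of all tested genes in 6 GC classes for replicates 1 (solid), 2 (dashed) and 3 (dotted). In cKO the Sp8 points (49.6% GC) lie far below the lines (differences from the class medians of -2.35 to -1.21), and in dcKO replicates 1 and 2 the lines drop to -1.95 and -1.54 in the highest class.

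In dcKO cortex no member was called by edgeR, against 0.0% of all genes. None of the 9 had an unadjusted p under 0.05, where 29.2% of all genes did in either direction, none was called by DESeq2 (8.47% of all genes), and in none did the 3 dcKO embryos lie apart from the 3 controls (26.8% of all genes). The median log2 fold change of the 9 was 0.04, beside 0.11 over all genes. The largest values were -1.13 ± 0.69 SE for *Emx1* (edgeR adjusted p = 0.296), -0.74 ± 0.53 for *Sp8* (adjusted p = 0.368) and -0.51 ± 0.27 for *Lhx2* (adjusted p = 0.227). *Sox2* (0.42 ± 0.22 SE), *Emx2* (0.36 ± 0.26) and *Nr2f1* (0.30 ± 0.22) were on the higher side, with edgeR adjusted p of 0.231, 0.374 and 0.379. Without dcKO replicate 2, *Sox2* was at 0.20 and *Emx2* at 0.10, and without dcKO replicate 3 they were at 0.57 and 0.60.

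Single embryos moved the dcKO values. The SE rests on a spread shared by all 9 embryos, and for *Emx1* it was 0.69 in dcKO and 0.71 in cKO. The SD of its log2 values was 1.7 among dcKO embryos and 0.12 among cKO embryos. Without dcKO replicate 2, *Sp8* was called lower by edgeR (log2 fold change -1.76), beside 2.56% of all genes, and without dcKO replicate 3, *Emx1* was called lower (-2.60), beside 15.3%. dcKO replicate 3 stood at most 0.44 from the control mean on the log2 scale for 8 of the 9 genes, and at -1.59 for *Sp8*. Relative to the control mean, dcKO replicates 1 and 2 were at -3.17 and -2.01 for *Emx1* and at -0.90 and -0.61 for *Lhx2*. These are the embryos in which GC-rich genes as a whole were low, and in the GC-corrected fit the dcKO value was 0.00 for *Emx1*, 0.37 for *Lhx2*, 1.58 for *Dmrta2* (edgeR adjusted p = 0.0809), 1.48 for *Nr2f1* (edgeR adjusted p = 0.0575) and 1.15 for *Dmrt3* (edgeR adjusted p = 0.0705).

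**Figure D4:**
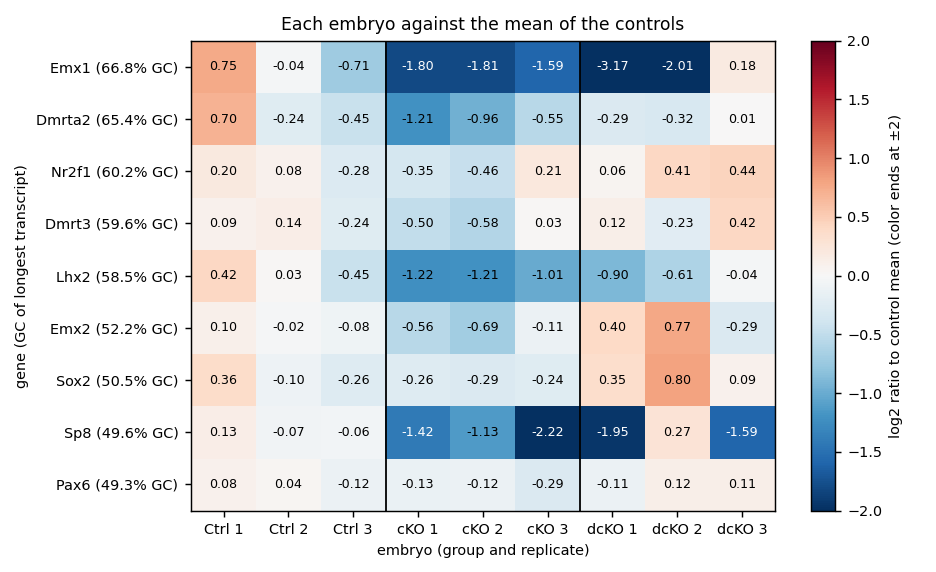
Log2 ratio of each embryo (columns) to the mean of the 3 controls for the 9 genes (rows, ordered by GC content of the longest transcript); blue is lower and red higher, and the numbers give the values. Sp8 is below -1 in every mutant embryo except dcKO replicate 2 (0.27), and dcKO replicate 3 differs from the control mean by at most 0.44 in all rows but Sp8.

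Directly compared, dcKO exceeded cKO for all 9 genes, with log2 fold changes of 0.22 to 0.79 and a median of 0.69. Without dcKO replicate 3, however, *Emx1* was at -0.75, and without dcKO replicate 2, *Sp8* was at -0.24. No member was called by edgeR (0.0146% of all genes were) or by DESeq2, and every edgeR adjusted p was 0.889 or more. At an unadjusted p under 0.05, *Sox2*, *Emx2* and *Lhx2* were higher, 3 of 9 beside 2.05% of all genes. In *Pax6*, *Sox2*, *Lhx2* and *Dmrta2* every dcKO embryo lay above every cKO embryo, 4 of 9 beside 2.62% of all genes. *Sox2* had the smallest unadjusted p of the 9, with a log2 fold change of 0.70 ± 0.22 SE (edgeR adjusted p = 0.889). After the GC correction the values for *Sox2*, *Emx2* and *Lhx2* were 0.76, 0.96 and 0.97, and the lowest over the 9 genes was 0.22 for *Pax6*. Because this comparison and that of cKO with Ctrl share the cKO embryos, their opposite signs are not independent of each other.

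Ratios of 2 genes within 1 library do not depend on how libraries are scaled. Reads of *Emx2* exceeded those of *Emx1* by 1.63, 2.60 and 3.95-fold in Ctrl, 6.05, 5.55 and 7.13-fold in cKO, and 30.4, 17.6 and 1.85-fold in dcKO. All cKO embryos were above all controls (difference of 1.28 on the log2 scale). The exact two-sided permutation p was 0.1, the smallest that 3 against 3 embryos can give, and 0.48 after adjustment over the 12 ratio comparisons made. In dcKO 2 embryos were above every cKO embryo, and replicate 3 lay within the control range. This ratio sets a GC-rich transcript against a less GC-rich one, and the part of the GC trend in it was not tested.

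The ratio of *Sp8* to *Nr2f1*, a rostral to a caudal factor, was 0.185, 0.175 and 0.226 in Ctrl and 0.0925, 0.122 and 0.0359 in cKO. It was lower in 3 of 3 cKO embryos, with a log2 difference of -1.39 (exact permutation p = 0.1, adjusted p = 0.48 over the 12 ratios). In dcKO it was 0.0481, 0.177 and 0.0473, low in 2 embryos and at the control level in replicate 2. Ratios of *Pax6* to *Emx2* (0.781, 0.824 and 0.774 in Ctrl; 1.07, 1.18 and 0.703 in cKO) and of *Dmrt3* to *Dmrta2* overlapped between the groups in every comparison.

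**Figure D5:**
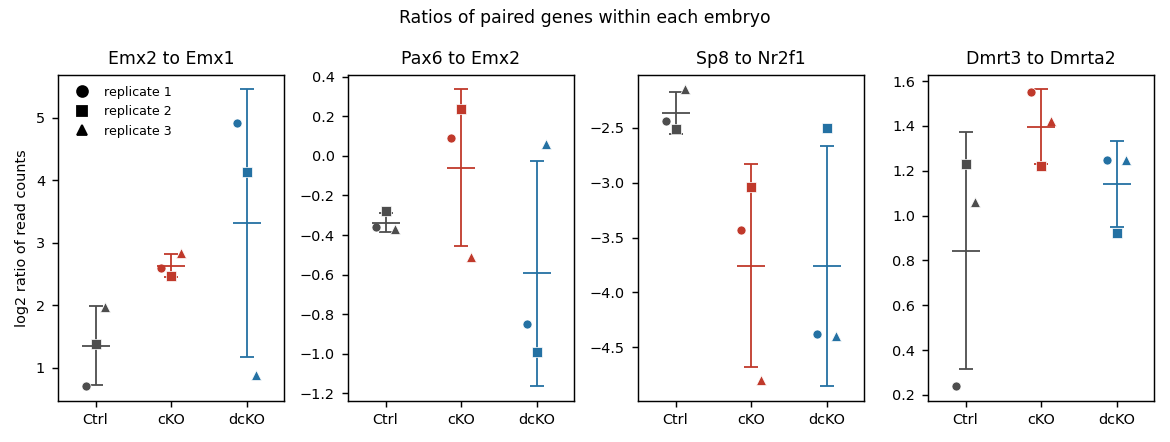
Log2 ratio of read counts (y axes, not starting at 0) of 4 gene pairs within each embryo of Ctrl, cKO and dcKO; symbols mark replicates 1 to 3, and the horizontal mark and bar give the mean and SD. For Emx2 to Emx1 all cKO points (2.47 to 2.83) lie above all controls (0.71 to 1.98), and for Sp8 to Nr2f1 all cKO points (-4.80 to -3.04) lie below all controls (-2.51 to -2.15).

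Noncoding genes that overlap or adjoin the 9 genes did not all follow them. *Dmrta2os*, on the opposite strand with 240 bases between it and *Dmrta2*, was at 618, 651 and 508 normalized counts in Ctrl, 112 to 258 in cKO and 181 to 370 in dcKO. It was lower in every mutant embryo than in any control, with a log2 fold change of -1.86 ± 0.39 SE in cKO (edgeR adjusted p = 0.0509, DESeq2 adjusted p = 0.000269) and -1.12 ± 0.38 in dcKO (edgeR adjusted p = 0.0944, DESeq2 adjusted p = 0.0279). With the GC correction these were -1.14 and 0.08. *Emx2os*, which overlaps *Emx2* by 264 bases, was lower in every cKO embryo than in any control (log2 fold change -0.61 ± 0.36 SE, edgeR adjusted p = 0.307), and in dcKO it was at 0.23 (edgeR adjusted p = 0.694).

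The remaining noncoding neighbours overlapped between cKO and Ctrl. *Sox2* lies wholly within *Sox2ot* on the same strand (2057 bases), *Pax6os1* overlaps *Pax6* by 1431 bases and *A830082K12Rik* overlaps *Nr2f1* by 1741 bases, both on the opposite strand. Their log2 fold changes in cKO were 0.33, 0.13 and 0.13, with edgeR adjusted p of 0.558, 0.861 and 0.848. In dcKO, which also overlapped the controls, they were 0.90, 0.62 and 0.94, with edgeR adjusted p of 0.114, 0.31 and 0.13, and 0.43, 0.34 and 0.35 with the GC correction. The strand setting of the read counting was not given in the sources used here, so reads in the shared bases may be assigned to either gene or to none.

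Among 5 tested paralogues, *Sox1* and *Sox3*, which share roles with *Sox2* in neural progenitors, were lower in every cKO embryo than in any control. Their log2 fold changes were -0.83 and -1.07 (edgeR adjusted p = 0.0893 and 0.117, DESeq2 adjusted p = 0.0397 and 0.046). DESeq2 called *Sox3* lower, beside 3.88% of all genes. With the GC correction these were -0.42 and 0.21. *Lhx9* was higher in every cKO and dcKO embryo than in any control, by 0.30 and 0.53 (edgeR adjusted p = 0.35 and 0.114), and was at 0.07 in both after the GC correction. *Dmrta1*, a relative of *Dmrta2*, was at 1630 to 1933 normalized counts in Ctrl, 1106 to 1394 in cKO, below every control, and 750 to 4158 in dcKO (log2 fold change in cKO -0.43 ± 0.49 SE, edgeR adjusted p = 0.603, and -0.65 with the GC correction). *Nr2f2* overlapped between the groups, with 343 to 678 normalized counts in Ctrl, 528 to 1533 in cKO and 558 to 1627 in dcKO, where the log2 fold change was 1.20 (edgeR adjusted p = 0.142).

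Other transcription factors of telencephalic progenitors were also more often lower than higher in cKO. Of 30 tested, 10 were lower and 1 higher at an unadjusted p under 0.05, beside 11.7% and 15.3% of all genes, with a median log2 fold change of -0.36. The 10 include *Sox1* and *Sox3*, given above as paralogues, and *Hes5* and *Sox9*, counted above as radial glia markers. *Hes5*, a Notch effector that maintains RGCs, was lowest at -1.83 (edgeR adjusted p = 0.0694, DESeq2 adjusted p = 0.00543). *Lef1*, a nuclear mediator of Wnt signaling, was at -1.16, and *Sall1*, a zinc finger factor of cortical progenitors, at -1.10 (edgeR adjusted p = 0.0655 and 0.052). After the GC correction these 3 were at -0.91, -1.33 and -1.07, with *Lef1* and *Sall1* called lower in that fit (edgeR adjusted p = 0.0805, 0.03 and 0.0301). The gene on the higher side was *Id1*, a BMP-responsive inhibitor of bHLH factors, at 1.57 (edgeR adjusted p = 0.055), and at 1.79 after the GC correction, where it was called higher (edgeR adjusted p = 0.03).

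Several of the 9 genes respond to signals of the cortical hem or restrict them, and of 14 such genes tested, 10 had a positive and 4 a negative log2 fold change in cKO. Of these, 7 were higher and 3 lower in cKO at an unadjusted p under 0.05, beside 15.3% and 11.7% of all genes. DESeq2 called 6 higher and 1 lower, beside 4.95% and 3.88% of all genes. The median was 1.05. *Rspo2*, an enhancer of Wnt signaling, was at 7.46, 12.3 and 0.613 CPM in Ctrl, 24.4, 74.9 and 96.5 in cKO, and 31.0 or more in every dcKO embryo. For cKO this was a log2 fold change of 3.27 (edgeR adjusted p = 0.0677, DESeq2 adjusted p = 0.0176). *Wnt2b*, a hem Wnt, was at 2.69 and *Bmp6*, a BMP ligand, at 2.15 (edgeR adjusted p = 0.0802 and 0.075).

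With the GC correction *Rspo2*, *Wnt2b* and *Bmp6* were at 3.13, 3.12 and 2.69, each past the threshold (edgeR adjusted p = 0.0459, 0.0391 and 0.0363), beside 3.5% of all genes called higher in that fit. Those lower at an unadjusted p under 0.05 were *Bmp7* (-1.18), *Wnt7b* (-0.81) and *Axin2* (-0.63), none of them past the edgeR threshold, with *Bmp7* called lower by DESeq2 (adjusted p = 0.00219). After the GC correction these were at -0.91, -0.18 and -0.41. In dcKO 5 of 14 were higher and 2 lower at an unadjusted p under 0.05, beside 29.2% of all genes in either direction. cKO replicate 3, the embryo with the lowest *Sp8* and the highest *Emx2* and *Nr2f1* of its group, had the highest *Rspo2* and *Ttr* of the 3. The part of hem and choroid plexus tissue in the levels of the 9 genes was not tested.

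Rostral FGF signals act upstream of *Sp8*, but the ligand genes *Fgf8* (0 reads in every embryo), *Fgf17* and *Fgf18* (at most 4 and 10 reads) were not tested. The 9 genes tested from this list were *Fgf15* and 8 feedback or target genes of FGF signaling, none of which had an unadjusted p under 0.05 in cKO (median log2 fold change -0.16). In dcKO 1 was higher and 2 lower, beside 29.2% of all genes in either direction, with a median of -0.59. Those lower were *Etv5*, an ETS factor induced by FGF signaling, at -1.99, and *Spry1*, a feedback inhibitor of receptor tyrosine kinases, at -1.13 (edgeR adjusted p = 0.0502 and 0.0511). DESeq2 called both lower (adjusted p = 0.000312 and 0.000436), and *Etv5* also in dcKO against cKO (-1.83, adjusted p = 0.00984). With the GC correction the values in dcKO against Ctrl were -1.82 and -0.41. The gene on the higher side was *Fgf15*, at 1.42 (edgeR adjusted p = 0.148). Of 13 tested genes listed as targets of the 9 factors, 4 were lower and none higher in cKO at an unadjusted p under 0.05, beside 11.7% and 15.3% of all genes. They were *Notch1* (-1.71, edgeR adjusted p = 0.0806, DESeq2 adjusted p = 0.0101), the Notch receptor of RGCs, *Ccnd1* (-1.19, edgeR adjusted p = 0.0827), which encodes cyclin D1, *Hes5* and *Nes*. *Notch1*, *Hes5* and *Nes* are also counted among the lower radial glia markers above, so the lists are not separate. *Neurog2*, a proneural gene that PAX6 activates, was at -0.33 and *Eomes*, the intermediate progenitor gene that encodes TBR2, at 0.11, with edgeR adjusted p of 0.425 and 0.822.

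The gene whose profile over the 9 embryos was nearest to that of a member, by the root mean square difference of centred log2 CPM over 13553 candidates, was *Zfp219* for *Emx1* (0.20) and *Zbtb45* for *Lhx2* (0.14). For *Sox2* it was *Camta1* (0.11), for *Emx2* *Zdhhc2* (0.13) and for *Pax6* *Srd5a1* (0.07). *Selenoh*, *Rnf167* and *Dmac1* were nearest to *Dmrta2* (0.18), *Dmrt3* (0.14) and *Nr2f1* (0.15). Among the members themselves, *Sox2* and *Emx2* were each other's nearest (0.22), as were *Nr2f1* and *Dmrt3* (0.20) and *Lhx2* and *Dmrta2* (0.26). The nearest members to *Emx1* and *Sp8* were at 0.77 and 0.74.

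The embryo codes carry numbers, 3 of which are shared by a control and a mutant embryo. Within them the log2 difference was -2.56 and -1.55 for *Emx1*, -1.63 and -1.05 for *Lhx2* and -1.26 and -2.15 for *Sp8* in the pairs of cKO with Ctrl, the same direction as over all embryos. In the pair of dcKO with Ctrl it was 0.89, 0.41 and -1.53. For *Emx1* and *Lhx2* this is opposite to the values over all embryos (-1.13 and -0.51). Of the other members, only *Nr2f1* differed in direction between the cKO pairs (-0.66 and 0.13). What the numbers in the codes stand for is not stated in the sources used here.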

How the data were processed

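Cortices of single E12.5 embryos (3 Ctrl, 3 cKO, 3 dcKO) were sequenced as stranded, poly(A)-selected libraries with paired reads of 150 bases. Per the labels and methods, the authors checked reads with FastQC, trimmed adapters with Cutadapt, aligned to mm39 with STAR and counted reads per gene with featureCounts; the strand setting is not given in the sources used here. The deposited values are raw counts for 57010 Ensembl genes. Symbols, GC content and positions came from GENCODE M21 (GRCm38), which matched 52081 identifiers; no mm39 coordinates were used. Coding sequences were read from its transcripts.

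The 13680 genes that had over 10 reads in each embryo were fitted in R 4.3.3 with edgeR 4.0.16 (TMM factors, quasi-likelihood test, all 9 embryos, no covariate), and p-values were adjusted by the Benjamini-Hochberg method over all of them. A gene was called when the adjusted p was below 0.05 and its log2 fold change exceeded 1 in size. DESeq2 1.42.0 and limma voom (3.58.1) were alternatives. Log2 CPM used a prior count of 0.5. Correction for GC content used loess offsets (span 0.3) fitted per embryo; the division into GC classes was added after seeing the data. Ratios within embryos were compared by exact two-sided permutation tests. The fits were tested on simulated counts.

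The 9 genes and the other gene lists were chosen with earlier results of these data known. All 9 genes, *Cnot3*, *Trp53*, the noncoding neighbours and the paralogues were named; from other lists, at most the 3 largest differences in each direction at an unadjusted p under 0.05, genes that define a list, and the nearest profile of each member (that of *Sp8* is not reported here). *Neurog2*, *Eomes*, *Vim*, *Sox9*, *Aqp1*, *Fgf8*, *Fgf15*, *Fgf17*, *Fgf18*, *Lhx6*, *Olig2*, *Isl1*, *Lhx8*, *Gad1*, *Gsx2*, *Dlx1* and *Nkx2-1* were chosen after their values were seen.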

Additional observations from a re-analysis of the deposited data

Results flagged for a closer look

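*Sox2* stood on opposite sides of the control mean in the mutants: all 3 cKO embryos lay below it (log2 ratios of -0.26, -0.29 and -0.24) and all 3 dcKO embryos above it (0.35, 0.80 and 0.09). Ctrl replicates 2 and 3 were below this mean as well (-0.10 and -0.26), with replicate 1 at 0.36. Without Ctrl replicate 1 the log2 fold change in cKO was -0.08, from -0.29. The difference between dcKO and cKO was 0.70 on the log2 scale, with an edgeR adjusted p of 0.889 and a DESeq2 adjusted p of 0.441, so it did not pass the threshold. Both differences share the same controls. No other member had all embryos of one mutant on one side of the control mean and all embryos of the other mutant on the opposite side.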

How the results depend on the processing

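For cKO against Ctrl the number of the 9 genes called was 0 with RLE or upper-quartile factors, limma voom, filterByExpr, the GC correction or no fold limit. It was 3 (*Emx1*, *Lhx2*, *Sp8*) with DESeq2, without a filter on low counts, over only the 6 embryos compared and in a fit blocked by the number in the embryo code, 1 (*Lhx2*) at an adjusted p under 0.1, and 4 at an unadjusted p under 0.05. Over all genes these 6 settings called 3.88%, 1.59%, 5.94%, 7.52%, 2.94% and 11.7% lower. Leaving out 1 embryo gave 0 to 3 with edgeR and with DESeq2. The embryo code block compares groups only within shared numbers, and for dcKO these embryos are dcKO replicate 3 and Ctrl replicate 3. Its calls for the dcKO comparisons are therefore not given. For dcKO against Ctrl the number called was 0 to 1 leaving out 1 embryo (*Sp8* without dcKO replicate 2, *Emx1* without dcKO replicate 3). For dcKO against cKO it was 3 at an unadjusted p under 0.05 (2.05% of all genes higher), and 0 to 1 leaving out 1 embryo (*Emx2* without dcKO replicate 3, beside 2.58%). The cause of these changes was not tested.

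Same-numbered embryos did not deviate together (mean correlation of -0.169 over 9 pairs, and 0.0835 over 18 pairs of different numbers), so replicate numbers did not pair them. With the replicate block edgeR called 0 of the 9 in each comparison, and DESeq2 with the replicate block, added after seeing the data, called 3 in cKO, beside 3.3% of all genes lower.

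The median in dcKO against Ctrl moved to 0.45 with the GC correction and 0.44 with replicate block and GC correction. It was 0.41 with the embryo code block, which here compares only dcKO replicate 3 with Ctrl replicate 3. In dcKO against cKO the median moved to 0.98 with the embryo code block, and ranged from 0.41 to 0.75 (DESeq2 0.42 to 0.73) leaving out 1 embryo. Directions reversed in cKO for *Nr2f1* (0.55, and 0.56 with the block), *Dmrta2* (0.29, 0.32) and *Dmrt3* (0.33, 0.33) under the GC correction. In dcKO against Ctrl they reversed under it for *Dmrta2* (1.58, 1.54), *Lhx2* (0.37, 0.35), *Emx1* (0.00) and *Pax6* (-0.02, -0.02). With the embryo code block, which rests on that pair of embryos, they reversed for *Emx1* (0.89), *Dmrta2* (0.46), *Lhx2* (0.41) and *Emx2* (-0.20). *Pax6* was at -0.06 without a filter, -0.04 with filterByExpr and -0.01 over 6 embryos. Leaving out 1 embryo, edgeR and DESeq2 values ranged from -0.02 to 0.11 and -0.04 to 0.08 for *Pax6*, -0.49 to 0.16 and -0.52 to 0.13 for *Dmrta2*, and -0.05 to 0.27 and -0.07 to 0.23 for *Dmrt3*. In dcKO against cKO, *Emx1* was at -0.06 with limma voom, and left-out embryos gave -0.75 to 1.19 and -0.74 to 1.16 for *Emx1*, and -0.24 to 1.15 and -0.27 to 1.13 for *Sp8*. The 4 ratios within embryos kept their direction in cKO against Ctrl with any 1 of the 6 embryos left out (0.96 to 1.59 for *Emx2* to *Emx1*, -1.75 to -0.87 for *Sp8* to *Nr2f1*), while that of *Emx2* to *Emx1* in dcKO against cKO ranged from -0.12 to 1.90; 3 against 3 embryos cannot pass the threshold.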
